A study of Mus musculus with 5 samples.

Results

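The cells described are kidney cells that carried the transcripts of group 2 innate lymphoid cells (ILC2s), and among them those that carried the mRNA of interleukin-5 (Il5) or interleukin-13 (Il13). They came from 2 single-cell RNA libraries of mouse kidney made on the BD Rhapsody platform, with 1 library per group. The first is labelled PD-1 knockout (strain B6.Cg-Pdcd1tm1.1Shr/J) and was taken 3 days after unilateral ureteral obstruction (UUO), in which a ureter is tied off and the kidney scars. The second is labelled wild type and was taken 14 days after UUO. Both are from male mice 8 to 10 weeks old, and the labels name sorted innate lymphoid cells as the cell type, so every share below is a share of a sort. The sources used here do not say how many mice stand behind a library. Because genotype, day and library change together between the groups, their parts in any difference cannot be told apart, no difference was tested, and each bracketed range is an exact 95% interval for counting error alone. The study's other libraries were wild-type kidney at day 3, not analysed here, and wild-type small intestine, taken either from sham-operated mice or at day 3 of UUO.

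Members were chosen by their own counts of a few genes, so those genes are no findings here. A cell was kept if it had 500 or more unique molecular identifiers (UMIs, 1 per captured mRNA molecule), 250 or more genes and no more than 20% of UMIs from mitochondrial genes. It entered the ILC2 gate with at most 1 UMI of Cd3d, Cd3e and Cd3g together, at least 3 UMIs of Il1rl1, Gata3, Il17rb, Calca and Arg1 together, and at least 1 of these from Il1rl1, Il17rb or Calca. The gate held 760 of 6960 kept cells of the knockout-labelled library (10.9%, 10.2 to 11.7%) and 549 of 5212 of the wild-type library (10.5%, 9.71 to 11.4%). In all, 1309 of 12172 kept kidney cells, and of 20619 kept cells of the 4 libraries with counts, were members. Gated cells with at least 2 UMIs of Il5 and Il13 together are called cytokine-bearing, 126 and 45 cells. Those with none are called cytokine-negative, 524 and 461 cells, and the 110 and 43 cells with exactly 1 such UMI stand apart.

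ILC2s are tissue-resident lymphocytes without an antigen receptor. They sense alarm cytokines of injured epithelium, namely interleukin-33 through the receptor encoded by Il1rl1 and interleukin-25 through that of Il17rb, and are built on the transcription factor Gata3. When activated they secrete interleukin-5, which sustains eosinophils, interleukin-13, which acts on epithelium, fibroblasts and macrophages, and amphiregulin, an epidermal growth factor receptor ligand of tissue repair. PD-1, encoded by Pdcd1, is an inhibitory receptor that ILC2s can carry.

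The sequences before the transcription start sites of Il5, Il13 and Csf2 are given because the first pair defines the cytokine-bearing cells and the third, which encodes the growth factor GM-CSF, was higher in them. All lie on chromosome 11 (GRCm38.p6, from RefSeq), Il5 at chr11:53720794-53725103 and Il13 at chr11:53631323-53634702, with 86.1 kb between them. Each stretch runs from 250 bases before to 50 bases after the start, 5′ to 3′ on the gene's strand, and capitals mark each GATA or its reverse complement TATC, the core letters that GATA factors recognise.
Il5: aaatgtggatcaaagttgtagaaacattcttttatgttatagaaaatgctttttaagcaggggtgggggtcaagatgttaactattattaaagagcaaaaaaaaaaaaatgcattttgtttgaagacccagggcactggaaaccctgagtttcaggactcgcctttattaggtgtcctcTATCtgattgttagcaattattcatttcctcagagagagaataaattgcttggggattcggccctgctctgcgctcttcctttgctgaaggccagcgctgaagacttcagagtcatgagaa
Il13: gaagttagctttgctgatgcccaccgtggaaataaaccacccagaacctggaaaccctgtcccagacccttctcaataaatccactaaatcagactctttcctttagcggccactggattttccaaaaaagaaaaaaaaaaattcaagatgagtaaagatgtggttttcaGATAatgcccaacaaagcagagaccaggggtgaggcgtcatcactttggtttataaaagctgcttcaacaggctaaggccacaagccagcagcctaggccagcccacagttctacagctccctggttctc
Csf2: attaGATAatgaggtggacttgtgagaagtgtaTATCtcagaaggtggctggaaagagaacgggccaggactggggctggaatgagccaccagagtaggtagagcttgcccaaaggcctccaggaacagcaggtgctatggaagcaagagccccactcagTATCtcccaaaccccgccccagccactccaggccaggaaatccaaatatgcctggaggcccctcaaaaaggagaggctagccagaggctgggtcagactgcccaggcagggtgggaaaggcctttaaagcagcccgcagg
The Il5 stretch (chr11:53720544-53720843, plus strand) held 1 match, 71 bases before the start, and the Il13 stretch (chr11:53634653-53634952, minus strand) held 1 match, 80 bases before it. In the Csf2 stretch (chr11:54249850-54250149, minus strand) there were 3 matches. Of 27025 RefSeq genes, 58.3% held GATA on either strand in a window of the same length at their first listed start, so a match by itself is common. AGATAA, on either strand, overlapped the match in Il13 and 1 of those in Csf2, was not found in Il5, and stood in 11.4% of all windows. No binding was measured here.

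The gated cells held 2378513 UMIs in the knockout-labelled library and 1369294 in the wild-type library, with medians of 2857.5 and 2310 UMIs per cell. Cytokine-bearing cells were deeper than cytokine-negative cells, with medians of 3386 against 2689 and 2709 against 2291 UMIs. CPM values are a gene's UMIs over all UMIs of the summed cells, on the usual scale, which removes depth from levels but not from shares of cells. Pdcd1, the gene named by the knockout label, was counted at 144 CPM (129 to 159.9) in gated cells of the knockout-labelled library and at 159.9 CPM (139 to 183) in those of the wild-type library. A counted mRNA end can lie outside a deleted part, so this level does not check the genotype. The wild-type library shared 24 or 25 cell barcodes with each of the 3 other wild-type libraries, 1 to 3 of them in gated cells. Barcodes of the knockout-labelled library were not used here, and no cell had identical counts in both kidney libraries.

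The gate found cells with a common and strong ILC2 pattern. The 5 marker genes together had a median of 15.5 UMIs per gated cell in the knockout-labelled library and 15 in the wild-type library, and 70.5% and 69.8% of gated cells had at least 10. All 5 markers were seen in 133 and 84 cells, and only 1 of them in 13 and 16 cells. Calca, which encodes the neuropeptide CGRP, was the most abundant marker, at 2568 and 3088 CPM in gated cells against 157 and 84.8 CPM in the other kept cells. Il17rb stood at 386 and 447 CPM against 39.7 and 56.3 CPM. Il1rl1 stood at 1617 and 1814 CPM against 89.0 and 87.2 CPM. Gata3 stood at 1248 and 1607 CPM against 205 and 209 CPM. These genes chose the cells, so their counts and levels are a description only. Arg1, the arginase of type 2 immunity, was the weakest of them in gated cells, at 264 and 282 CPM against 21.6 and 20.9 CPM in the other cells.

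The share of cytokine-bearing cells near the thresholds is given once, as a description. Cells with exactly 3 marker UMIs, just inside, were cytokine-bearing in 2 of 54 cases in the knockout-labelled library and 1 of 24 in the wild-type library, and cells with 2, just outside, in 3 of 143 and 0 of 53. Cells with 1 CD3 UMI, inside, were bearing in 47 of 259 and 5 of 92 cases, and cells with 2 CD3 UMIs and the markers, outside, in 20 of 96 and 3 of 41. With 3 or more CD3 UMIs and the markers it was 10 of 205 and 0 of 206. The T cell receptor gene Trac stood at 172, 227 and 265 CPM in cells with 0, 1 and 2 CD3 UMIs of the knockout-labelled library, and at 126, 327 and 1042 CPM in the wild-type library, where Areg stood at 989, 792 and 467 CPM. Of all cytokine-bearing kept cells, 126 of 168 (75%) in the knockout-labelled library and 45 of 51 (88.2%) in the wild-type library lay in the gate. Of the 42 and 6 outside, 30 and 3 passed the markers but had more than 1 CD3 UMI.

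Many ILC2 identity genes that the gate did not use were higher in gated cells of both libraries. Of 20 further ILC2 identity genes, 17 were measured well enough (at least 50 UMIs in each library and 50 CPM in the higher class), and 11 of these were at least 1.5-fold higher in gated than in other kept cells of both libraries and 2 were lower. Over all 3762 genes measured, 9.33% were higher and 12% lower. Areg, which encodes amphiregulin, had 932 against 67.9 CPM in the knockout-labelled library and 951 against 57.5 CPM in the wild-type library. Klrg1, a lectin-like inhibitory receptor of mature ILC2s, had 252 against 27.3 CPM in the knockout-labelled library and 271 against 40.6 CPM in the wild-type library. It reached 50 CPM in gated cells only, and the filter favours such members. Il2ra, the high-affinity interleukin-2 receptor chain, had 1092 against 149 CPM in the knockout-labelled library and 1147 against 205 CPM in the wild-type library. Rora, a nuclear receptor needed for ILC2 development, had 3289 against 1211 CPM in the knockout-labelled library and 3521 against 1328 CPM in the wild-type library, so other cells in the sort carried it too. Il7r did not separate the cells, with 2031 against 1831 CPM in the knockout-labelled library and 2466 against 2457 CPM in the wild-type library. The lower members were Thy1 and Tcf7, both of which T cells also carry, with log2 ratios of -1.08 and -1.69 for Thy1 and -1.79 and -1.80 for Tcf7.

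Several lipid mediator genes were higher in the gated cells. Of 22 listed, 11 were measured, and 8 of these were higher in gated cells of both libraries and 0 lower. The median log2 ratio was 1.94, against -0.05 over all genes. Ptgs2, Alox5, Ptgir and Pparg reached 50 CPM in gated cells only. The filter thus favours members that are high there, and the count is a description. Ptgs2, the inducible cyclooxygenase of prostaglandin synthesis, had 563 against 37.0 CPM in the knockout-labelled library and 453 against 16.3 CPM in the wild-type library. Alox5, the 5-lipoxygenase that starts leukotriene synthesis, had 201 against 17.6 CPM in the knockout-labelled library and 306 against 5.16 CPM in the wild-type library. Ptgir, the prostacyclin receptor, had 101 against 6.64 CPM in the knockout-labelled library and 129 against 4.82 CPM in the wild-type library, and Pparg, a lipid-sensing nuclear receptor, had 193 against 13.1 CPM in the knockout-labelled library and 145 against 3.92 CPM in the wild-type library. Immediate early genes were also higher, 9 of 16 measured and 0 lower, led by Klf4, Atf3 and Nr4a1. Ptgdr2, the prostaglandin D2 receptor often used to sort ILC2s, and the cytokine genes Il9 and Il3 had 0 UMIs in gated cells. Tph1 and Bmp2 were among the leading genes of this comparison, a choice made after their values were seen.

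**Figure D1:**
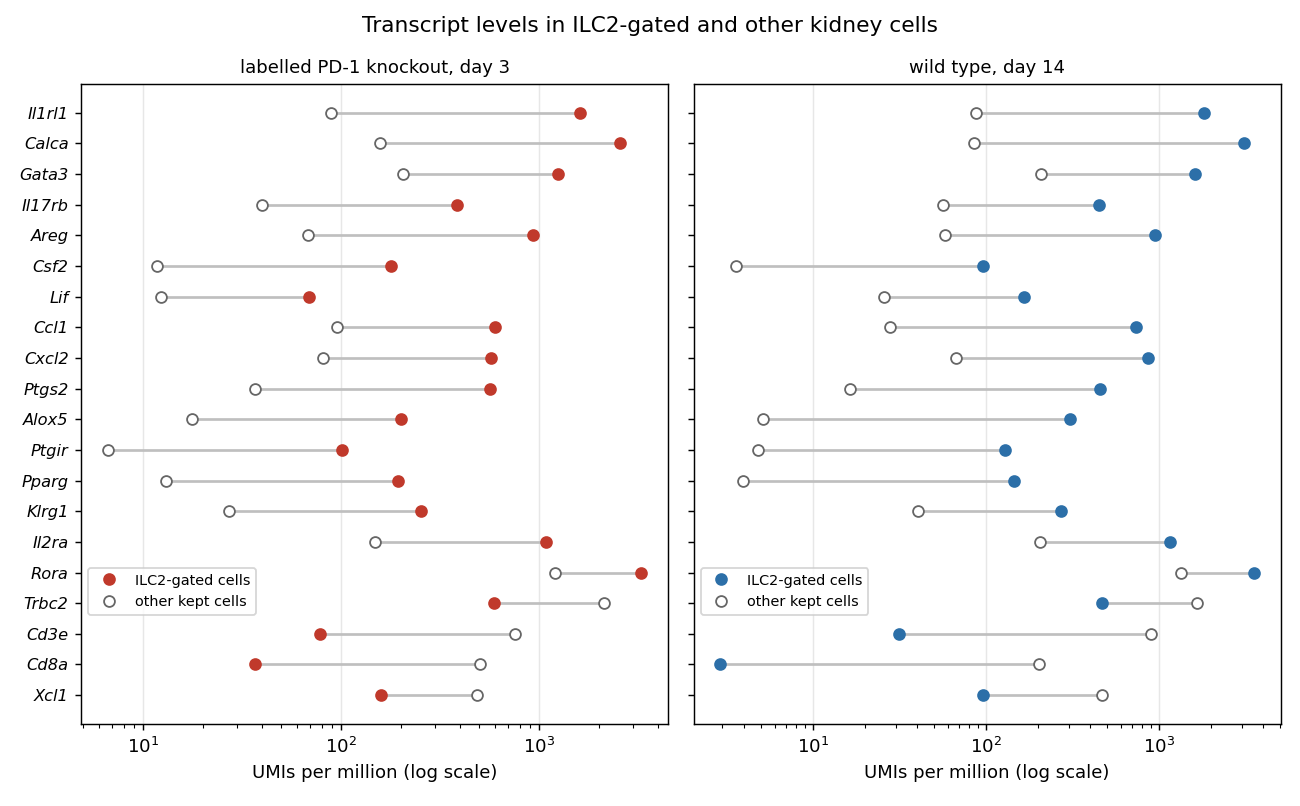
Levels in CPM (log axis) of 20 genes in ILC2-gated cells (filled) and other kept cells (open), in the library labelled PD-1 knockout, day 3 (left), and the wild-type library, day 14 (right). The upper 16 genes are higher in gated cells of both libraries and Trbc2, Cd3e, Cd8a and Xcl1 are lower; Il1rl1, Calca, Gata3, Il17rb and Cd3e were used by the gate, and there is 1 library per group.

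Transcripts of other lymphocytes were low but not absent in the gate. All 12 T cell markers measured were at least 1.5-fold lower in gated than in other cells of both libraries, as were all 7 natural killer (NK) and ILC1 markers measured. Their summed levels were 1216 and 944 CPM in gated cells for the 12 T cell markers, against 7142 and 6289 CPM in the other cells. For the 9 NK and ILC1 markers they were 568 and 329 CPM against 1893 and 1738 CPM. Cd3d, Cd3e and Cd3g, which are among the 12, were limited by the gate itself. The gate removes cells with CD3, so lower levels of the other T cell markers follow from it. Markers such as Cd8a and Eomes also reached 50 CPM in the other cells only. These counts and sums therefore describe what the gate left. At least 2 UMIs of markers of other lineages were carried by 193 of 760 gated cells (25.4%) in the knockout-labelled library and 25 of 549 (4.55%) in the wild-type library, and no doublet caller was run.

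Il5 and Il13 were concentrated in few cells. Of the 760 gated cells of the knockout-labelled library, 120 carried Il5 alone, 89 Il13 alone and 27 both, and of the 549 of the wild-type library 43, 33 and 12. The top 10 cells held 27.2% of the Il5 and Il13 UMIs in the knockout-labelled library and 48.3% in the wild-type library. There 467 Il5 and 288 Il13 UMIs, and 226 and 101, were counted over the whole gate. A single cell held up to 65 and 34 of them, while the median bearing cell held 3 and 4. Il5 outnumbered Il13 in both, by 1.62 and 2.24 UMIs to 1. Gated cells that carried Il5 also carried Il13 in 18.4% and 21.8% of cases, against 14.5% and 6.68% of gated cells without Il5. Depth raises the chance of seeing either mRNA and was not the same in these cells, so the shares describe detection and not how often a cell makes both.

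**Figure D2:**
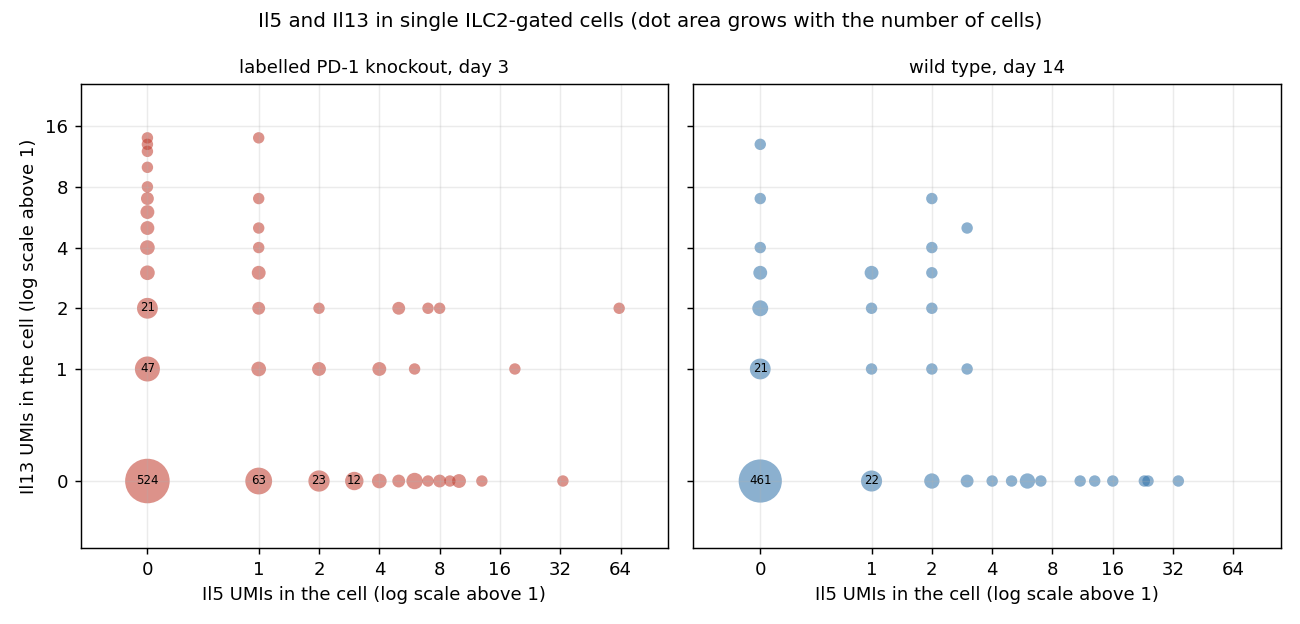
Il5 UMIs (horizontal) against Il13 UMIs (vertical) in each ILC2-gated cell of the library labelled PD-1 knockout, day 3 (left, 760 cells), and the wild-type library, day 14 (right, 549 cells), on axes that are logarithmic above 1. Dot area grows with the number of cells and numbers give counts of 10 or more; 524 and 461 cells have neither, and most cells with one mRNA lack the other.

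Cytokine-bearing cells made up 16.6% (14.0 to 19.4) of gated cells in the knockout-labelled library and 8.20% (6.04 to 10.8) in the wild-type library. With each cell thinned to 1000 UMIs, which left out 20 and 14 shallower cells, the shares were 4.73% (3.32 to 6.52) and 4.30% (2.74 to 6.38), whose intervals overlap almost wholly. At a minimum of 1 UMI the thinned shares were 16.4% (13.8 to 19.2) and 11.2% (8.67 to 14.2), against 31.1% (27.8 to 34.5) and 16% (13.1 to 19.4) without thinning. At 1000 UMIs only 35 and 23 cells reached 2 cytokine UMIs. Such counts are too few to show whether a difference in this share remains at equal depth, which was not tested. Levels, which depth does not set, were 196 CPM (179 to 215) and 165 CPM (144 to 188) for Il5, and 121 CPM (108 to 136) and 73.8 CPM (60.1 to 89.6) for Il13. The Il13 intervals do not overlap and the Il5 intervals do.

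Background was lower. NK-gated cells, which should lack both mRNAs, reached 2 UMIs in 0 of 748 cells in the knockout-labelled library and 0 of 577 in the wild-type library, which, at a limit of 3 cells, allows shares of up to 0.401% and 0.52%, at medians of 2244 and 1868 UMIs. B cell-gated cells did so in 1 of 70 and 0 of 76 cells, at medians of 1634 and 1392 UMIs. Among all other kept cells the shares were 0.677% and 0.129%.

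Cytokine-bearing cells carried more mRNA of other secreted factors than cytokine-negative cells of the same library. Of 3362 genes measured, 28 (0.833%) were at least 1.5-fold higher and 65 (1.93%) at least 1.5-fold lower in bearing cells of both libraries, with Il5 and Il13 themselves left out because they made the classes. In the knockout-labelled library alone 8.12% passed this size in either direction, and in the wild-type library, with 45 bearing cells, 23.1%. The log2 ratio had the same sign in both libraries for 56.1% of genes, so only values shared by both libraries are described. Which genes passed depended on the cells and depth used: of the 28 and 65, 19 and 42 passed again with every cell weighted equally, and 3 and 8 with cells thinned to 1500 UMIs before both rules, where fewer genes could be measured. Intervals lay above 0 in both libraries for 66 genes and below 0 in both for 42.

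Areg had 1392 CPM in bearing against 750.1 CPM in negative cells of the knockout-labelled library, and 1867 against 838 CPM in the wild-type library. Its log2 ratios were 0.89 (0.75 to 1.03) and 1.16 (0.95 to 1.36), and it was detected in 79.4% and 80.0% of bearing against 54.8% and 55.3% of negative cells, shares that the greater depth of bearing cells also raises. Most negative cells thus also carried amphiregulin mRNA. Csf2 had 259.9 CPM in bearing against 142 CPM in negative cells of the knockout-labelled library, and 249 against 74.5 CPM in the wild-type library, with log2 ratios of 0.87 (0.54 to 1.20) and 1.74 (1.11 to 2.34). Lif, an interleukin-6 family cytokine, had 101 CPM in bearing against 60.4 CPM in negative cells of the knockout-labelled library, and 296 against 144 CPM in the wild-type library. Together Areg, Csf2 and Lif were the higher ones of 5 measured cytokine genes other than Il5 and Il13. Tgfb1 and Bmp7, the other two, had ratios of -0.33 and 0.43 and 0.14 and -0.33, without a shared direction. Il4, Il9, Il3, Il6, Il10, Tnf, Ifng, Il17a and Il22 were below the level needed to compare the classes. Among cells with at least 10 marker UMIs, a choice made after the data were seen, Csf2 was short of 1.5-fold in the knockout-labelled library, at 0.56.

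A pair of chemokines was higher as well. Ccl1, the ligand of the receptor CCR8, had 807 CPM in bearing against 466 CPM in negative cells of the knockout-labelled library, and 1331 against 615 CPM in the wild-type library, with log2 ratios of 0.79 (0.61 to 0.97) and 1.11 (0.86 to 1.36). Cxcl2, which recruits neutrophils, had 989 CPM in bearing against 425 CPM in negative cells of the knockout-labelled library, and 1455 against 796 CPM in the wild-type library, with log2 ratios of 1.22 (1.04 to 1.39) and 0.87 (0.63 to 1.10). Ccr8, whose product binds CCL1, had ratios of 0.41 and 0.51, short of 1.5-fold in both. Of 5 chemokine genes measured, 2 were higher and 1, Xcl1, was lower. Ccl1 was short of 1.5-fold in the knockout-labelled library among cells with at least 10 marker UMIs, at 0.51.

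Among receptors, Klrg1 and Tnfrsf25 were higher in bearing cells. Klrg1 had 354 CPM in bearing against 220.0 CPM in negative cells of the knockout-labelled library, and 405 against 237 CPM in the wild-type library. Tnfrsf25, also called DR3, the receptor for the ILC2-activating cytokine TL1A, had 56.6 CPM in bearing against 32.2 CPM in negative cells of the knockout-labelled library, and 101 against 39.0 CPM in the wild-type library, resting on 27 and 13 UMIs in bearing cells. Il2ra was higher by less than 1.5-fold in both, with log2 ratios of 0.56 and 0.41. The alarm cytokine receptors differed from this. Il1rl1 had ratios of 0.19 and -0.18, with opposite signs, and Il17rb had ratios of -0.14 and -0.71. Il18r1 and Il18rap, the chains of the interleukin-18 receptor, had ratios of -2.23 and -0.95 for Il18r1 and -0.85 and -0.98 for Il18rap, and without cells of other lineages -2.21 and -0.79 and -0.08 and -0.77, where Il18rap was no longer lower in both. In all, 1 of 21 alarmin and cytokine receptor genes measured was higher and 2 were lower, and 2 of 17 identity genes, Areg and Klrg1, were higher with none lower. Over all genes 0.833% were higher and 1.93% lower. Tnfrsf25 reached 50 CPM in bearing cells only and Il18r1 in negative cells only. The filter favours such members, and the receptor count is a description. Pdcd1 had 174 CPM in bearing against 141 CPM in negative cells of the knockout-labelled library, and 163 against 159.6 CPM in the wild-type library, and both intervals of its log2 ratios included 0, at 0.31 (-0.08 to 0.68) and 0.03 (-0.69 to 0.69).

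Gata3 and Calca, both used by the gate, differed less between the classes. Gata3 had 1461 CPM in bearing against 1155 CPM in negative cells of the knockout-labelled library, and 2116 against 1515 CPM in the wild-type library, and Calca had 2779 CPM in bearing against 2501 CPM in negative cells of the knockout-labelled library, and 3564 against 3075 CPM in the wild-type library. Neither reached 1.5-fold in either library. Arg1 stood at 365 against 238 CPM in the knockout-labelled library and 366 against 255 CPM in the wild-type library.

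Enzymes and nuclear proteins filled most other leading places. Asb2, a substrate-binding part of a ubiquitin ligase, had 113 CPM in bearing against 50.6 CPM in negative cells of the knockout-labelled library, and 140.1 against 61.2 CPM in the wild-type library. Acod1, the enzyme that makes itaconate, had 98.5 CPM in bearing against 48.6 CPM in negative cells of the knockout-labelled library, and 101 against 37.2 CPM in the wild-type library, and was seen in only 10.3% and 6.67% of bearing cells. Alox5 had 291 CPM in bearing against 162 CPM in negative cells of the knockout-labelled library, and 467 against 286 CPM in the wild-type library, as 1 of 11 lipid mediator genes that were higher in both. Ptgs2 had ratios of 0.97 and 0.48, past 1.5-fold in the knockout-labelled library only. Idh3a, a subunit of the citrate cycle enzyme isocitrate dehydrogenase, Hat1, a histone acetyltransferase, H2bc4, a histone H2B gene, and Plxnc1, a semaphorin receptor, completed the named higher genes, at log2 ratios between 0.76 and 1.33.

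Cell cycle genes leaned upward in bearing cells. Of 11 measured, 2 (Pclaf and Mcm5) were higher in both libraries and none was lower, with medians over the list of 0.56 in the knockout-labelled and 0.60 in the wild-type library, against -0.01 and -0.02 over all genes. Top2a, the topoisomerase of dividing cells, was split, with 312 CPM in bearing against 121 CPM in negative cells of the knockout-labelled library, and 132 against 137 CPM in the wild-type library. Cells with at least 2 UMIs of cycling markers were 22 of 126 bearing (17.5%) and 41 of 524 negative cells (7.82%) in the knockout-labelled library, and 4 of 45 (8.89%) and 22 of 461 (4.77%) in the wild-type library. Deeper cells pass such a count more easily. With these cells left out, 23 genes were higher and 67 lower in both libraries. Pclaf then had -0.10 in the knockout-labelled library and no value in the wild-type library. With all cells, its wild-type ratio rested on 10 UMIs in 2 bearing cells, with an interval of -0.39 to 1.75. Without cells of other lineages Mcm5 had 0.43 and 1.29, short of 1.5-fold in the knockout-labelled library.

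The NK cell genes that could be measured were lower in bearing cells. All 3 NK and ILC1 markers measured of 9 were lower in both libraries. Xcl1 and Gzma reached 50 CPM in negative cells only, as did Klrb1b in the wild-type library. The filter thus favours markers that are lower in bearing cells, and the count is a description. Xcl1, a chemokine of NK and CD8 T cells, had 48.2 CPM in bearing against 212 CPM in negative cells of the knockout-labelled library, and 7.78 against 114 CPM in the wild-type library. Klrb1b, an NK cell lectin receptor, had 65.0 CPM in bearing against 213 CPM in negative cells of the knockout-labelled library, and 31.1 against 94.9 CPM in the wild-type library. Gzma, which encodes granzyme A, had 21.0 CPM in bearing against 67.0 CPM in negative cells of the knockout-labelled library, and 7.78 against 54.1 CPM in the wild-type library, with 10 and 1 UMIs in bearing cells. Cd7, Tyrobp, which encodes the adaptor DAP12, and Ctsw, a cathepsin of cytotoxic cells, were lower at log2 ratios of -2.49 and -2.04, -1.40 and -1.95 and -1.17 and -2.15. Of T cell markers, 1 of 3 measured, Trbc1, was lower in both, at -1.10 and -0.64, and without cells of other lineages it had -0.90 and -0.50, short of 1.5-fold in the wild-type library. Among cells with at least 10 marker UMIs, Xcl1 stood at -0.43 and -2.37, and Klrb1b at 0.15 and -0.20, short of 1.5-fold except for Xcl1 in the wild-type library.

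Summed NK and ILC1 marker levels were 193 against 767 CPM in the knockout-labelled and 54.5 against 386 CPM in the wild-type library, where bearing cells had 0 UMIs of Ncr1, Klrb1c, Eomes, Tbx21 and Klra8. Summed T cell markers were 971 against 1296 CPM and 669 against 978 CPM. Without the cells that held markers of other lineages, Areg had log2 ratios of 0.76 and 1.06 and Csf2 of 0.65 and 1.68, and Xcl1 stood at -0.93 and -3.34. Alox5 was then short of 1.5-fold in the knockout-labelled library, at 0.55. This removed more knockout-labelled than wild-type cells, and 31 genes were higher and 55 lower in both.

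Some of the lowest ratios rested on single cells. Spp1, Clu and Lcn2, secreted proteins of injured kidney tubule, were lower in bearing cells at ratios of -1.80 and -6.33 for Spp1 and -1.82 and -5.81 for Clu, but 1 cell held 89.8% of the Spp1 UMIs of wild-type gated cells and 1 cell 65.9% of the Clu UMIs. For Lcn2 1 cell held 87.8% in the knockout-labelled and 1 cell 89.4% in the wild-type library. The gate held 1 knockout-labelled and 3 wild-type cells with 10 or more UMIs of kidney epithelium markers, which had passed it with 2 or 3 Gata3 UMIs and 1 of Calca or Il17rb. Without them Lcn2 had 0.29 in the knockout-labelled library, Spp1 had 0.48 in the wild-type library, and the genes higher and lower in both numbered 28 and 62. Igfbp4, a binding protein of insulin-like growth factors, was spread over more cells in the wild-type library, with 219 UMIs in 17.6% of negative cells and 2 UMIs in bearing cells. Car2, carbonic anhydrase 2, had 37.7 CPM in bearing against 149 CPM in negative cells of the knockout-labelled library, and 46.7 against 137 CPM in the wild-type library.

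Immediate early genes, which rise within minutes of stimulation or tissue digestion, were not higher in bearing cells. Of 16 measured, none was higher in both libraries and 1 was lower, Egr1, a zinc finger transcription factor, with 287 CPM in bearing against 534 CPM in negative cells of the knockout-labelled library, and 93.4 against 598 CPM in the wild-type library. Without cells that held markers of other lineages Egr1 had log2 ratios of -0.47 and -2.63, short of 1.5-fold in the knockout-labelled library, and no gene of the list was then lower in both. Fosb and Jun were nearly equal, with ratios of 0.00 and -0.01 and -0.06 and 0.02. No gene passed 1.5-fold in both libraries in either direction among 20 signalling and feedback genes, 16 secretory pathway genes, 7 glycolysis genes, 10 arginine and amino acid genes, 8 neuropeptide and hormone receptor genes, 13 lineage regulators and 7 heat shock genes measured.

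MHC class II genes, which present antigen to CD4 T cells, split between the libraries. Of 4 measured, 3 were lower in bearing cells of the knockout-labelled library (5.62% of all genes were), and in the wild-type library none was lower and 1 higher (8.27% of all genes were). H2-Aa had 358 CPM in bearing against 713 CPM in negative cells of the knockout-labelled library, and 257 against 226 CPM in the wild-type library. H2-Ab1 had 272 CPM in bearing against 611 CPM in negative cells of the knockout-labelled library, and 280.1 against 248 CPM in the wild-type library. In the wild-type library 1 cell held 54.1% of the H2-Eb1 UMIs of bearing cells, and with cells of other lineages left out the list's median in the knockout-labelled library was -0.37 against -0.95 with all cells. The difference between the libraries was not tested.

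**Figure D3:**
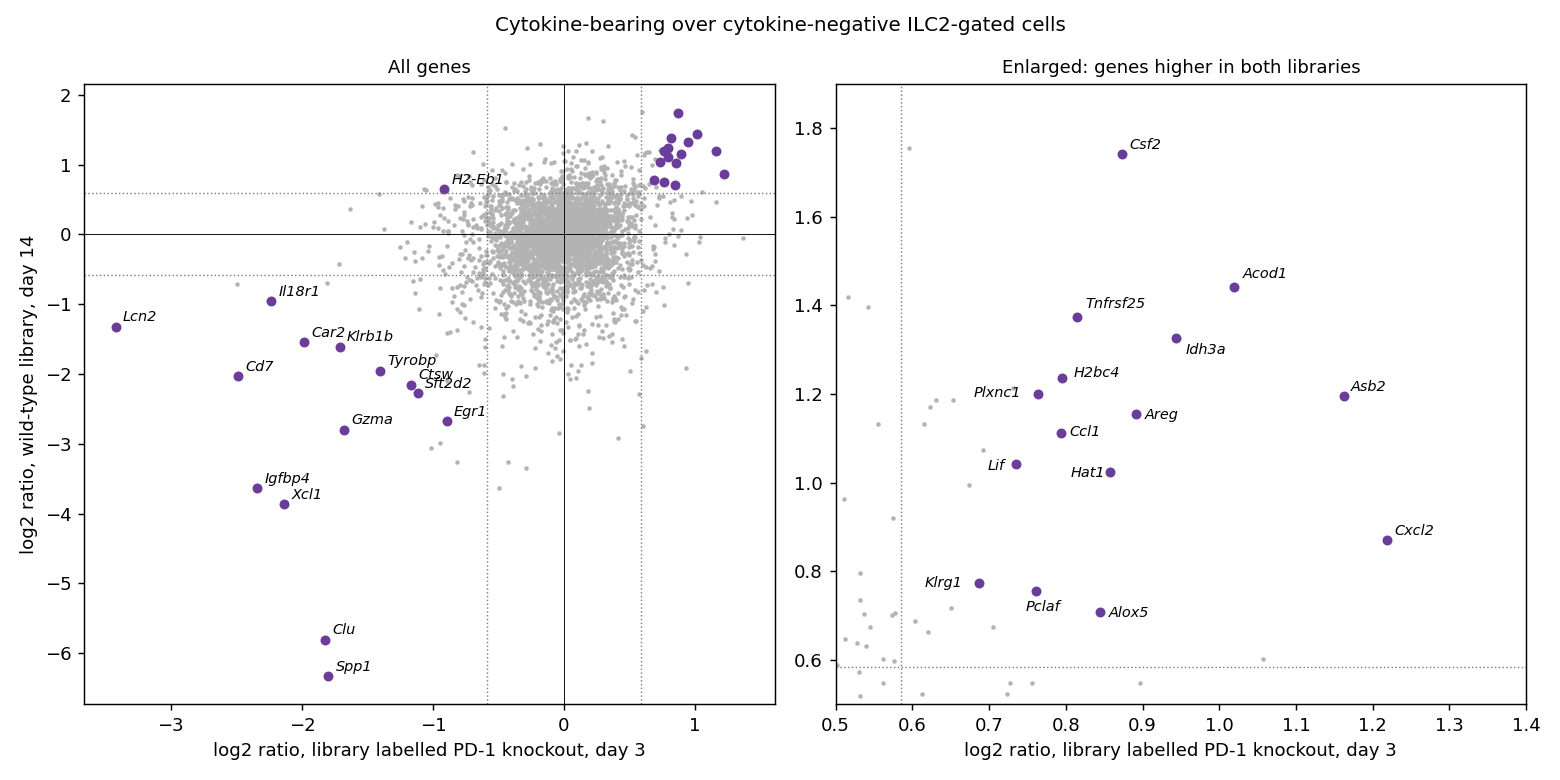
Log2 ratio of cytokine-bearing over cytokine-negative ILC2-gated cells in the library labelled PD-1 knockout, day 3 (horizontal, 126 and 524 cells), and in the wild-type library, day 14 (vertical, 45 and 461 cells), 1 point per gene of 3362, with the genes named in the text in purple and dotted lines at 1.5-fold. The right panel enlarges the upper corner, where Csf2, Areg, Ccl1, Lif and Cxcl2 lie; Lcn2, with 0 UMIs in wild-type bearing cells, is drawn at the bound that 3 counts give.

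The same genes were then followed over the number of Il5 and Il13 UMIs per cell, including the cells with exactly 1, which the comparison above did not use. Areg stood at 750.1, 1082, 1238 and 1564 CPM in cells with 0, 1, 2 to 3 and 4 or more such UMIs in the knockout-labelled library, and at 838, 1034, 1566 and 2063 CPM in the wild-type library. Each step was higher than the one before in both libraries, but these genes were named for differing between cells with 0 and with 2 or more, so only the class with 1 UMI was not used to name them. Its Areg interval did not overlap that of the cells with 0 in the knockout-labelled library and did in the wild-type library. Cxcl2 was also higher at each step, at 425, 639, 802 and 1199.6 CPM and at 796, 830.4, 1189 and 1627 CPM. Csf2 stood at 142, 232, 230.2 and 293 CPM and at 74.5, 141, 159 and 307 CPM, and the cells with 1 UMI were above those with 0 in both. Lif was near its level at 0 until the last step in the knockout-labelled library, at 60.4, 63.3, 67.5 and 138 CPM, and stood at 144, 229.7, 258 and 320.3 CPM in the wild-type library. Ccl1 was high from 1 UMI on, at 466, 894, 667 and 964 CPM and at 615, 1246, 1486 and 1229.8 CPM. Egr1 went the other way, at 534, 166, 345 and 222 CPM and at 598, 265, 59.5 and 115 CPM, with its highest level in cells without cytokine UMIs. Il7r, Rora and Il1rl1 had no steady order in both libraries. The highest class held 57 and 26 cells.

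**Figure D4:**
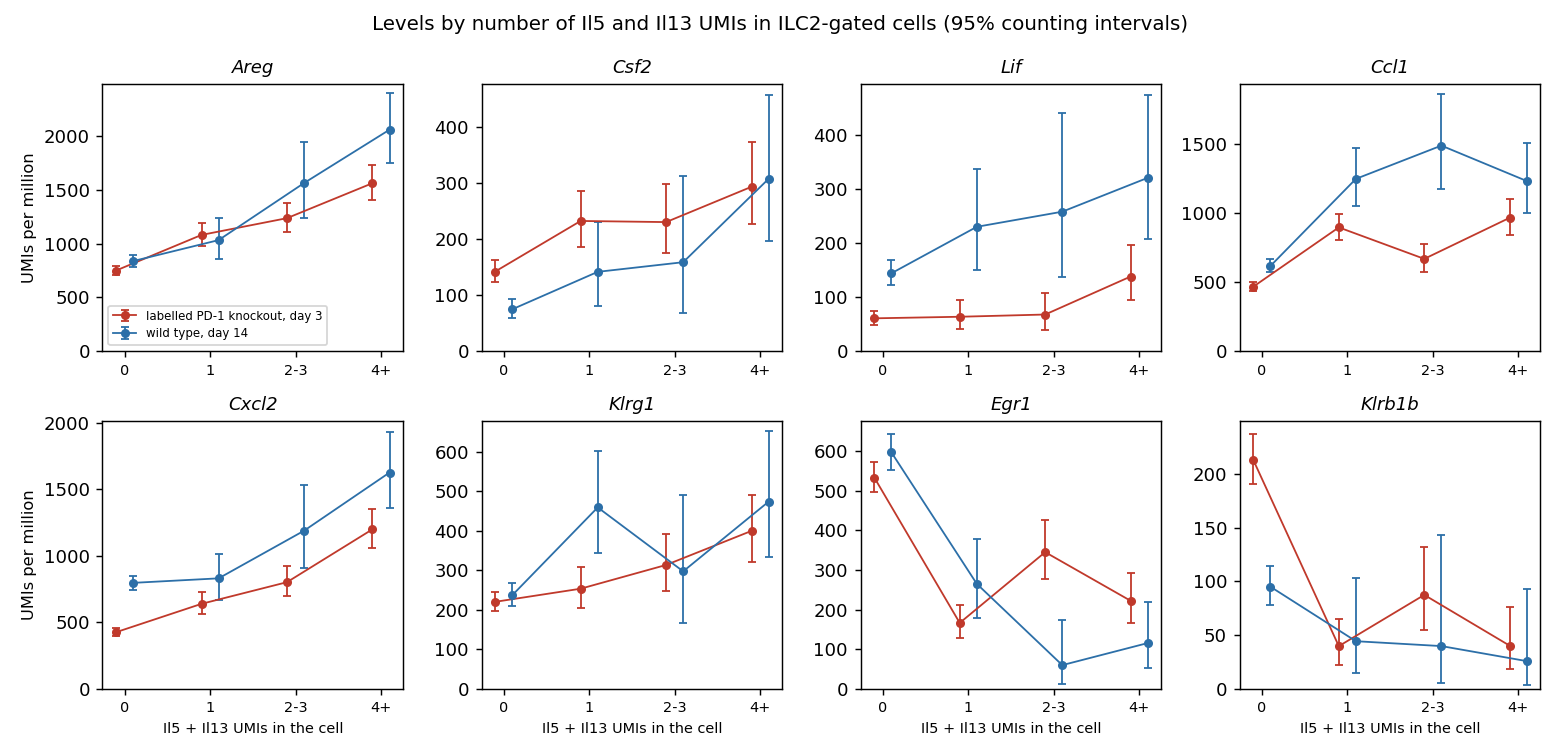
Levels in CPM (vertical, from 0) of 8 genes in ILC2-gated cells with 0, 1, 2 to 3 and 4 or more Il5 and Il13 UMIs (horizontal), in the library labelled PD-1 knockout, day 3 (red), and the wild-type library, day 14 (blue); bars are 95% Poisson intervals, which cover counting error only. Areg and Cxcl2 are higher at every step in both libraries, and Egr1 and Klrb1b are highest in cells with 0.

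Cytokine-bearing cells could be divided further into those with Il5 alone (57 and 21 cells), Il13 alone (42 and 12 cells) and both (27 and 12 cells). Ccl1 stood at 704, 1234 and 509 CPM in these classes of the knockout-labelled library and at 783, 1979 and 1504 CPM in the wild-type library, higher in Il13-only than in Il5-only cells of both. Areg and Cxcl2 had the opposite order between these classes. Areg stood at 1498, 1149 and 1448 CPM and at 2422, 1622 and 1289 CPM, and Cxcl2 at 1076, 751 and 1086 CPM and at 2459, 522 and 886 CPM. Calca was also higher in Il5-only than in Il13-only cells of both, at 3041, 2222 and 2866 CPM and at 4007, 2337 and 4109 CPM. Csf2 changed order between the libraries, at 151, 429 and 303 CPM and at 237, 192 and 322 CPM. With 12 cells in a class these values are a description of these libraries.

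Between the libraries, the ILC2-gated cells differed by less than 1.5-fold for most genes. Of 3660 genes measured (at least 100 UMIs in both together and 50 CPM in the higher), 167 (4.56%) were at least 1.5-fold higher and 120 (3.28%) lower in the knockout-labelled library, against 121 (3.31%) and 140 (3.83%) of the same genes in the other kept cells. The median log2 ratio was 0.00406. Of cell cycle genes, 11 of 12 measured were higher and none lower, with a median of 0.88. Mcm2, a part of the replicative helicase, stood at 82.4 CPM against 34.3 CPM (log2 1.26, 0.80 to 1.75), and Mki67, a marker of dividing cells, at 115 CPM against 71.6 CPM (log2 0.69, 0.35 to 1.03). Mcm2 reached 50 CPM in the knockout-labelled library only. The filter favours such members, and the count of cell cycle genes is a description. Among cytokine-negative cells 5 of 12 were higher (4.7% of all genes were), with a median of 0.58, and among bearing cells 7, with a median of 0.67, where 17.3% of all genes were higher.

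Effector genes did not move together. Csf2 stood at 179.9 CPM against 96.4 CPM (log2 0.90, 0.62 to 1.19) and Il13 at 121 CPM against 73.8 CPM (log2 0.72, 0.38 to 1.06), both higher in the knockout-labelled library. Lif was lower, at 69.0 CPM against 165 CPM (log2 -1.26, -1.56 to -0.96), and so was Il2, which encodes interleukin-2, at 20.6 CPM against 53.3 CPM (log2 -1.37, -1.92 to -0.83). Areg was close, at 932 CPM against 951 CPM (log2 -0.03, -0.13 to 0.07), and Il5 differed by less than 1.5-fold (log2 0.25, 0.02 to 0.49). Cxcl2 stood at 572 CPM against 861 CPM and Ccl1 at 602 CPM against 735 CPM. Of 8 cytokine genes measured, 2 were thus higher and 2 lower. Il2 reached 50 CPM in the wild-type library only, and the filter favours such members. In the other kept cells 3 of the 8 were higher and 3 lower, with Csf2 among the higher at 11.8 against 3.59 CPM.

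Few receptor and identity genes differed, at shares not far from the 3.28% of all genes that were lower. Kit, the stem cell factor receptor, stood at 246 CPM against 422 CPM (log2 -0.78, -0.95 to -0.61), the only one of 18 identity genes measured to pass 1.5-fold. Tnfrsf4, which encodes OX40, stood at 38.3 CPM against 89.8 CPM (log2 -1.23, -1.64 to -0.83), the only one of 21 alarmin and cytokine receptor genes. Ctla4, an inhibitory receptor, stood at 32.8 CPM against 81.8 CPM (log2 -1.32, -1.75 to -0.89), the only one of 13 inhibitory receptor genes. It was also at least 1.5-fold lower in the other kept cells. Tnfrsf4 and Ctla4 reached 50 CPM in the wild-type library only, and the filter favours such members. Pdcd1 had a log2 ratio of -0.15, -0.40 to 0.10, and Il1rl1 one of -0.17, -0.24 to -0.09. Of the lipid mediator genes, Alox5 at 201 CPM against 306 CPM and Dgat2, a triglyceride synthesis enzyme, at 311 CPM against 566 CPM were lower, 2 of 11 measured. Ccr2, a chemokine receptor, stood at 492 CPM against 780.0 CPM. Hspa1a and Hspa1b, inducible heat shock genes, were lower at 7.15 CPM against 122 CPM and 25.6 CPM against 228 CPM, with 31.7% and 25.3% of the wild-type UMIs in 1 cell each. The other 7 heat shock genes measured differed by less than 1.5-fold. Hspa1a and Hspa1b were also lower in the other kept cells, at log2 ratios of -2.52 and -2.42.

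MHC class II genes were higher in the knockout-labelled library. All 4 MHC class II genes measured passed, H2-Aa at 621 CPM against 249 CPM (log2 1.32, 1.15 to 1.49) and Cd74, the invariant chain, at 1205 CPM against 662 CPM (log2 0.86, 0.75 to 0.97). The same 4 were also higher in NK-gated cells, where 4.59% of all genes were, and in the other kept cells, with medians of 1.26 and 0.79 against 1.11 in ILC2-gated cells. Summed B cell markers in ILC2-gated cells were 31.5 against 18.3 CPM and summed myeloid markers 241 against 124 CPM. Of 7 myeloid markers only 1, Fcer1g, was measured, and it made up most of the sum. In cytokine-negative cells the sums were 289 and 145 CPM. Fcer1g had 261 and 136 CPM there, with cells of kidney epithelium markers left out. Without cells of other lineages the median of the MHC class II list was 0.90.

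The highest single ratios included genes known from cytotoxic cells, for which no list was counted. Gzmb, which encodes granzyme B, stood at 151 CPM against 15.3 CPM (log2 3.29, 2.66 to 4.0), with 27.1% of the knockout-labelled UMIs in 1 cell. In bearing cells it stood at 226 against 7.78 CPM (log2 4.86, 2.35 to 10.2), and the wild-type value there is that of 1 UMI. Nkg7, a granule protein gene of cytotoxic cells, stood at 174 CPM against 64.3 CPM, Ccl4, a chemokine of activated lymphocytes, at 98.4 CPM against 27.8 CPM and Klrc1, an NK receptor gene, at 80.7 CPM against 32.9 CPM. All 4 NK and ILC1 markers measured of 9 were higher, where 4.56% of all genes were. The filter favours members that are high in 1 library, so the count is a description. Without cells of other lineages 2 of these markers were measured and neither passed. Gzmb, Ccl4 and Nkg7 did not follow these markers. Without those cells their log2 ratios were 4.54, 4.25 and 2.05, against 3.29, 1.83 and 1.43 with all cells. In the knockout-labelled library 1 cell each then held 31.8% of the Gzmb and 55.2% of the Ccl4 UMIs. Nkg7 was then seen in 158 of 567 knockout-labelled and 29 of 524 wild-type cells. Klrc1 was then not among the highest ratios, and its value is not given here. With all cells, Plek, Ly6c2, Hdc, Pglyrp1, Anxa2 and Irf8 completed the named higher genes, at log2 ratios between 1.30 and 2.43. In the other kept cells Gzmb, Ccl4, Klrc1, Anxa2 and Irf8 differed by less than 1.5-fold. Plek, Ly6c2, Hdc, Pglyrp1 and Nkg7 were higher there too, at log2 ratios of 0.71, 1.07, 0.99, 0.98 and 0.78.

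Most of the lowest ratios were those of genes whose wild-type UMIs 1 cell mostly held. Slc34a1, the phosphate transporter of proximal tubule, Slc13a1, Gpx3, Ndrg1, Cd63 and Spp1 had at least 87.3% of their wild-type UMIs in 1 cell. For Gpx3 and Spp1 this cell held 37376 UMIs, among them 963 of Gpx3 and 636 of Spp1, and 0 UMIs of the pan-leukocyte gene Ptprc. Without the 4 epithelium-marked cells, Spp1 had a log2 ratio of 3.08 where it had -2.20 with them, and 170 genes were higher and 117 lower. The lowest ratios were then those of Hspa1a, Hspa1b, Trgc1, Gda, Igfbp4, Il2, Ctla4, Nrp1, Ttn, Lif, Tnfrsf4 and Bmp2, a list made after the data were seen. Bmp2, a bone morphogenetic protein, stood at 475 against 1087 CPM. Trgc1, a T cell receptor gamma constant gene, stood at 68.4 against 226 CPM.

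**Figure D5:**
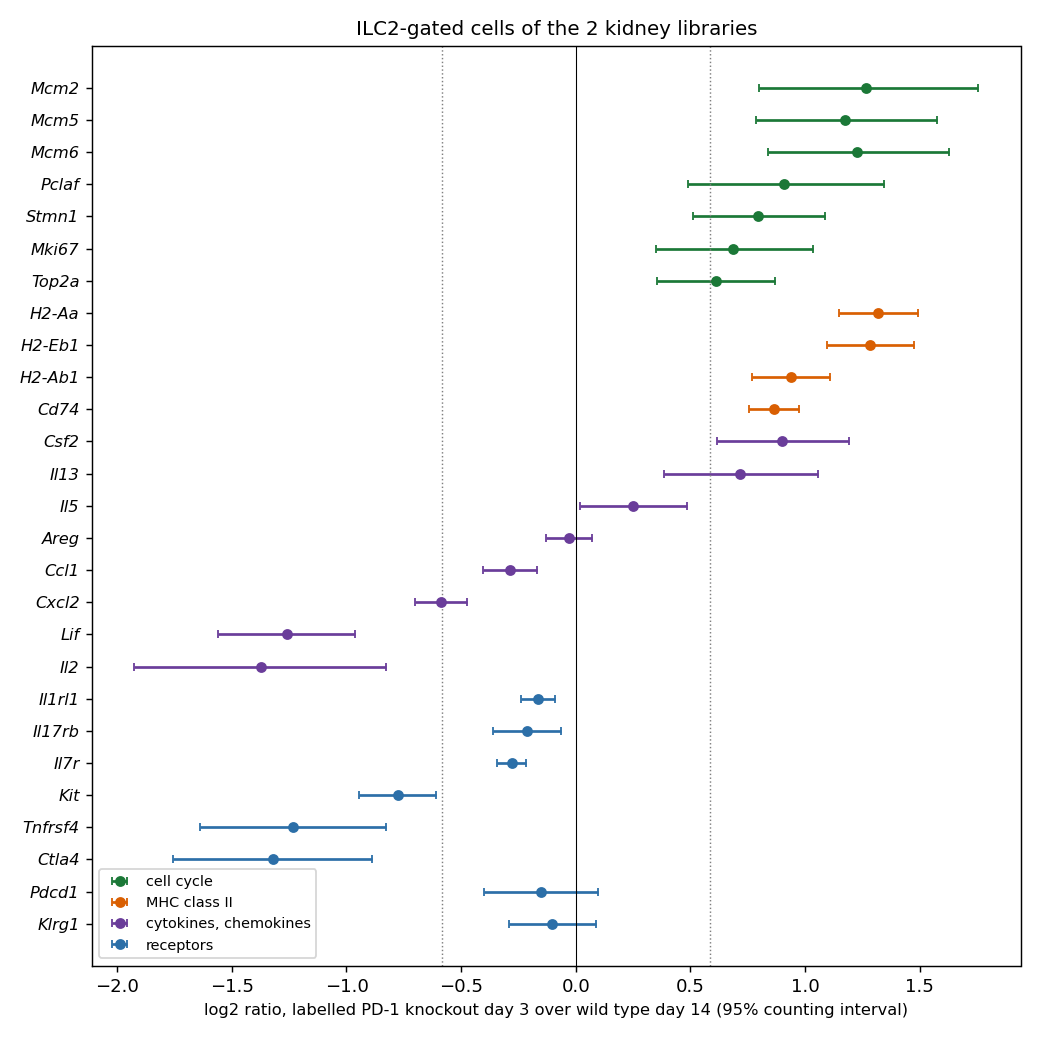
Log2 ratio of ILC2-gated cells in the library labelled PD-1 knockout, day 3 (760 cells), over those in the wild-type library, day 14 (549 cells), for 27 genes in 4 groups, with 95% intervals that cover counting error only and dotted lines at 1.5-fold. Cell cycle and MHC class II genes lie to the right of 0, cytokine genes on both sides, and Kit, Tnfrsf4 and Ctla4 to the left, while Pdcd1 and Klrg1 have intervals that include 0; genotype, day and library cannot be told apart.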

How the data were processed

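Both kidney libraries and the intestinal ones were analysed from the deposited UMI counts per gene and cell. CASAVA 1.8, Seurat, UMI-tools and the build mm10 appear in the submitters' processing notes; the sources used here name no aligner, annotation or cell caller, and part of the labels' protocol describes pulmonary artery digestion, which does not match the organ. The wild-type day 14 matrix took its gene names from the identical gene lists of the other libraries. UMIs were summed per library and class with Python 3.11.15, numpy 2.4.6, scipy 1.17.1 and pandas 2.3.3. Levels carry exact Poisson, shares exact Clopper-Pearson and ratios exact conditional binomial 95% intervals. A zero was set to 3 counts. Values at least 1.5-fold apart were counted, and shares were also taken after thinning each cell to 1000 UMIs. In each comparison the 12 highest and 12 lowest genes were named (for bearing cells, by the smaller of the 2 libraries' ratios), leaving out mitochondrial, ribosomal, predicted, receptor segment, sex-linked and haemoglobin genes. Gate genes, Il5, Il13, Pdcd1 and list members were named as well, and 1 gene that the rule names is not reported here. The members and lists were chosen with earlier results of these data known. The code of the comparison was run on simulated counts with larger changes, in more abundant genes and without variation between cells. That run does not show how reliable 1.5-fold calls near 50 CPM are. Doublets were treated only by an alternative that leaves out cells with 2 or more UMIs of other lineages.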

Additional observations from a re-analysis of the deposited data

Results flagged for a closer look

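For 3 genes the cytokine-bearing cells were higher in one kidney library and lower in the other, with intervals on opposite sides of 0, and in each case the difference between the libraries was not tested. H2-Eb1 had log2 ratios of bearing over negative cells of -0.91 and 0.64 in the knockout-labelled and wild-type libraries, with 54.1% of the wild-type bearing UMIs in 1 cell. Marcksl1 had -0.70 and 1.18, on 16 UMIs in wild-type bearing cells. Tmem273 had 0.93 and -1.91, on 2 UMIs there.

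Cells that passed the same gate were also present in the intestinal libraries, which the comparisons did not use, at 1.70% of kept cells 3 days after UUO and 1.17% after sham surgery (84 and 41 cells). More than 3 cells passed in each, and whether they are ILC2s was not tested.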

How the results depend on the processing

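No paired analysis was possible because each group is 1 library, and no library could be left out for the same reason. The gate share moved beyond its counting interval, to 7.20% (knockout-labelled) and 8.77% (wild type) with no CD3 UMI allowed, to 13% and 11.6% at 2 marker UMIs, and to 10.1% in the knockout-labelled library at 4. The bearing share was 31.1% and 16% at 1 cytokine UMI, 10.3% and 6.01% at 3, and 5.86% and 4.67% with cells thinned to 1000 UMIs before the gate. Genes higher and lower in bearing cells of both libraries, 28 and 65, numbered 10 and 25 at 100 UMIs per library, 50 and 114 with bearing cells at 4 UMIs or more, 108 lower with cells thinned to 1500 UMIs first, and 28 lower at a marker minimum of 10 UMIs. Between the libraries, 167 and 120 became 65 lower at 200 UMIs, 99 higher with cells thinned to 1000 UMIs, and 79 and 62 in bearing cells only. Leaving out epithelium-marked cells and the marker minimum of 10 were chosen after seeing the data. Every other alternative run kept these counts within 1.5 times and these shares within their intervals, but not the genes behind them: with bearing and negative cells matched by depth 13 of the 28 and 43 of the 65 passed again, and thinned to 1000 UMIs after the classes were set 6 and 11.

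Some named genes changed sign, and the cause was not tested beyond the single cells given above. For bearing over negative cells (log2, knockout-labelled library unless given), these were: with no CD3 UMI allowed, Clu 0.40, Spp1 0.015 and Lcn2 1.07. Without cycling cells, Pclaf -0.10. Without cells of other lineages, Lcn2 0.28. With cells thinned to 1000 UMIs after the classes were set, Pclaf -0.0097 (wild type). With bearing cells at 4 UMIs or more, Idh3a -0.54 (wild type) and Pclaf -1.85 (wild type). Thinned to 1500 UMIs first, Tnfrsf25 -0.10, Plxnc1 -0.0033, Pclaf -2.08, Clu 0.15, Gzma 0.011 and Car2 0.079 (wild type). Without the epithelium-marked cells, Spp1 0.48 (wild type) and Lcn2 0.29. At a marker minimum of 10 UMIs, Cd7 0.10 (wild type), Klrb1b 0.15, Car2 1.30 (wild type), Tyrobp 0.087 and Lcn2 0.43. For the knockout-labelled over the wild-type library (log2), these were: with cells weighted equally, Spp1 0.35. With no CD3 UMI allowed, Gpx3 4.58, Ndrg1 0.72, Fxyd2 0.87, Cd63 1.24 and Spp1 0.56. Without cycling cells, Gpx3 3.55, Ndrg1 0.89, Fxyd2 1.39, Cd63 1.25 and Spp1 1.79. Without cells of other lineages, Gpx3 1.15, Cd63 0.31 and Spp1 0.16. Thinned to 1000 UMIs, Fxyd2 0.21 and Spp1 0.58. In bearing cells only, Hspa1b 1.63, Cd63 1.43 and Spp1 2.43. Without the epithelium-marked cells, Gpx3 3.74, Ndrg1 0.83, Fxyd2 1.22, Cd63 1.32 and Spp1 3.08. At a marker minimum of 10 UMIs, Gpx3 2.73, Ndrg1 0.47, Fxyd2 1.29, Cd63 0.67 and Spp1 3.94. Depth limits the 45 wild-type bearing cells most, where many named lower genes rest on 1 or 2 UMIs.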
